A study of Mus musculus with 4 samples.

Results

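Immunoglobulin heavy and kappa variable (V) segments were followed in bulk RNA sequencing of mouse bone. All rows of the deposited count table with a symbol starting in Ighv or Igkv were taken, which gave 37 of the 1175 listed genes, 13 of the heavy chain and 24 of the kappa light chain. The exercise group was 13-week-old wild-type mice on the C57BL/6J background that ran on a treadmill over 5 weeks starting at 8 weeks old, while the sedentary group was age-matched wild-type mice left without running. No Cre line or floxed allele was carried by either group. Whole bones were ground after the marrow had been flushed out, so that the RNA came from bone tissue together with whatever blood and marrow cells remained. There were 2 libraries per group, called exercise replicates 1 and 2 and sedentary replicates 1 and 2. Whether the libraries within a group represent separate animals is not stated in the labels, so p-values reflect only how far these libraries spread, which may be technical.

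Each B lymphocyte joins a V segment to shorter gene segments at its heavy chain locus and another at a light chain locus, and transcribes the joined gene ahead of a constant region. The V segment encodes most of the antigen-binding domain, so the V segments found in a tissue's RNA describe which receptors its B lymphocytes and antibody-secreting plasma cells carry. A clone that expands, or that turns into plasma cells, brings many transcripts of a single heavy and a single light V segment. In a bulk sample, fewer cells of a clone and less RNA per cell cannot be told apart.

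The 4 columns of the table summed to 1160883 and 2680636 counts in exercise replicates 1 and 2, against 594856 and 516963 counts in the sedentary libraries. All 1175 listed genes had a higher mean count in the exercise libraries, and the rule by which the genes of the table were chosen is not given in the sources used here. Counts were therefore compared as shares, meaning counts per 1000000 counts of the table (CPM below). Every listed gene was higher in count in exercise, so the directions, calls and adjusted p-values below describe genes listed on that side. They cannot show whether exercised bone held more V segment RNA. A share ratio of exercise over sedentary above 1 was common in this table, found in 753 of the 1175 genes (64.1%). The V exons of the 37 segments were 298 to 316 bases long, so the shares of different segments were compared without a correction for length.

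The 13 heavy segments lie on chromosome 12 of GRCm38 (mm10) between positions 114048241 and 115869227, all on the minus strand, and belong to 5 of the 16 annotated heavy V families. They are 11.5% of the 113 heavy V genes annotated in GENCODE M21 that are not pseudogenes. The 24 kappa segments lie on chromosome 6 between positions 67609713 and 70672377, 10 on the plus and 14 on the minus strand, and belong to 12 of 20 families (24% of 100 genes). Each gene has a leader exon and a V exon. Many V exons are near copies of each other, which matters for the counts: 23 segments had fractional counts in at least 1 library and 14 had whole counts in all 4. Whole transcripts, leader included, were compared with those of all annotated V genes, pseudogenes not left out. All 23 fractional segments shared at least 1 stretch of 50 bases with another such transcript, against 11 of the 14 whole ones, and 17 of 23 against 3 of 14 shared a stretch of 100 bases. Counts of segments with such neighbours are uncertain, because the way reads were divided among them is not given in the sources used here.

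Sequences are shown first for a pair of near copies whose shares went different ways between the exercise libraries. The pair is Igkv3-10 (chr6:70572921-70573220, plus strand), the most abundant segment, and Igkv3-5 (chr6:70663586-70663885, plus strand), which differ at 6 of 310 aligned V exon bases. The first 300 bases of each V exon, read from GRCm38, are given 5′ to 3′ as the gene reads, and capitals mark the bases that differ within the pair.
Igkv3-10: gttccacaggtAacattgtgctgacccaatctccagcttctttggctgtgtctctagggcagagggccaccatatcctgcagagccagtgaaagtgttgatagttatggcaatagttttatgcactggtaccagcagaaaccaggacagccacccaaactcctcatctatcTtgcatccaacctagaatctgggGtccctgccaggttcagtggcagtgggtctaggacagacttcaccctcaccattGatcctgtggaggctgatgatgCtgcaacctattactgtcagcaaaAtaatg
Igkv3-5: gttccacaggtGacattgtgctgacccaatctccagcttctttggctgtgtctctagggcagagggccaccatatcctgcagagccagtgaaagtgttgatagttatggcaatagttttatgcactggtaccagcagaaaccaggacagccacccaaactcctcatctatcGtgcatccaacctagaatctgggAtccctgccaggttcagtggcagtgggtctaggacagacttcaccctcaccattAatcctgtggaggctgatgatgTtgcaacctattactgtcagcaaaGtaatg

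The next 4 are, on each side, the 2 segments with the widest ratio of share between the exercise libraries, the kappa segments Igkv4-55 (chr6:69607275-69607574, minus strand) and Igkv12-46 (chr6:69764523-69764820, minus strand) on the side of replicate 1, and the kappa segment Igkv1-110 (chr6:68270968-68271267, plus strand) and the heavy segment Ighv9-3 (chr12:114140692-114140991, minus strand) on the side of replicate 2. The last bases of each V exon are given 5′ to 3′ as the gene reads. Capitals mark the codons for tyrosine, tyrosine or phenylalanine, and cysteine that stand just before the third antigen-binding loop. The letters searched, on the coding strand only, were TATTACTGT, TATTACTGC, TATTTCTGT and TATTTCTGC. One of them was found in 30 of the 37 listed V exons, and in 78.9% of the 213 annotated V exons of both loci.
Igkv4-55: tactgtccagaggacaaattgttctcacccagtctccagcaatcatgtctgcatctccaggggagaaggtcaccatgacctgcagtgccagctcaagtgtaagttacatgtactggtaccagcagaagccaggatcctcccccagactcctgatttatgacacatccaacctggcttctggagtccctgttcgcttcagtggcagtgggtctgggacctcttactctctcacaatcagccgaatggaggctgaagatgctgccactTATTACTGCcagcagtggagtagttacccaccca
Igkv12-46: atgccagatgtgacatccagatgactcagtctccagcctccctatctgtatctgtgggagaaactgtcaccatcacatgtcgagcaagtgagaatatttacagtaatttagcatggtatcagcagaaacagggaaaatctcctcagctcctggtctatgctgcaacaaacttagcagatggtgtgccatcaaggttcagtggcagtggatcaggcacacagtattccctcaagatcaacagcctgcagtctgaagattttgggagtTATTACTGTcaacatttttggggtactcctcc
Igkv1-110: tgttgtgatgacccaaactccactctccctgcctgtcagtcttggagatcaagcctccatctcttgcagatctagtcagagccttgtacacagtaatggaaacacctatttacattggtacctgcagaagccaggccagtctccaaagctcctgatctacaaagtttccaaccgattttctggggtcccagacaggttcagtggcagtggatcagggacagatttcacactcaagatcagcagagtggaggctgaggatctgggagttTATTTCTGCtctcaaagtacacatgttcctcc
Ighv9-3: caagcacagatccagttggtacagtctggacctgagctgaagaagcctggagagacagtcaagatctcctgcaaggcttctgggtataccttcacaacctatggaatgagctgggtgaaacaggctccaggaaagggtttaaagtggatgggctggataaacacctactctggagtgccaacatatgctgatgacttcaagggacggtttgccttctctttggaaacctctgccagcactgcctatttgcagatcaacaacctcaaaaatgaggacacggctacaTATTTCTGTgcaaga

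To describe V segment RNA in exercised and sedentary bone, the segments were first summed within each library. The 37 segments together had shares of 7112 and 2933 CPM in exercise replicates 1 and 2, against 2330 and 2444 in the sedentary libraries. Both exercise libraries lay above both sedentary ones, but replicate 2 by little and replicate 1 by far. The heavy segments gave 485 (95% Clopper-Pearson interval 446 to 527) and 519 (492 to 547) CPM in the exercise libraries, against 118 (91.7 to 149) and 86.4 (63.5 to 116) in the sedentary libraries. These intervals, and all others given, cover counting error only. The exercise libraries were thus alike in their heavy V sum and clear of the sedentary ones. The kappa segments gave 6628 and 2414 CPM in exercise replicates 1 and 2, against 2212 and 2358 in the sedentary libraries, so the kappa sum was high in 1 exercise library and near the sedentary values in the other.

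**Figure D1:**
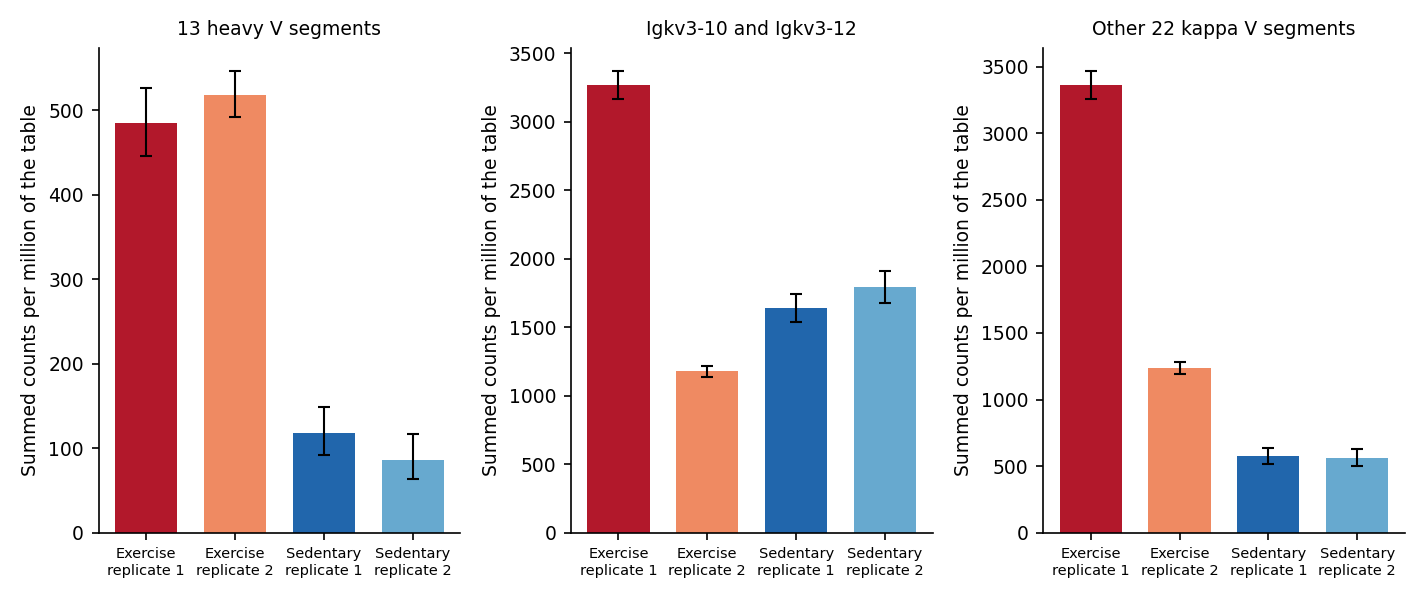
Summed shares, in CPM of the table, of the heavy segments, the most abundant kappa pair and the other kappa segments. Each bar is 1 library, exercise at the left, and error bars are 95% Clopper-Pearson counting intervals. The heavy sums of the exercise libraries (485 and 519) sit together above the sedentary ones (118 and 86.4), while the kappa sums of the exercise libraries stand apart from each other.

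All 37 segments had a share ratio of exercise over sedentary above 1 in edgeR, where 64.1% of all listed genes had one. The median log2 ratio was 2.47 for the 13 heavy segments (range 1.26 to 4.41) and 1.88 for the 24 kappa segments (range 0.18 to 3.80), against 0.14 for all listed genes. With DESeq2 size factors or TMM factors the median of all listed genes was 0.04, and all 37 segments stayed above 0. Without exercise replicate 1 the kappa median was 0.79. By the thresholds the study used, an unadjusted p under 0.05 and a log2 ratio over 0.25 in size, 9 of 37 segments passed, all higher in exercise (3 heavy and 6 kappa), where 11.3% of all listed genes passed as higher. The study applied them with DESeq2, and with DESeq2's Wald test 17 of 37 passed, where 13.3% of all listed genes did. Passing refers to edgeR unless another test is named. At an adjusted p under 0.05 (edgeR's quasi-likelihood test, Benjamini-Hochberg over 1175 genes) 0 of 37 passed, where 0.34% of all listed genes did, and the adjusted p of the segments ran between 0.3488 and 0.8628. At an unadjusted p under 0.05 there were 9, where 134 of the 1175 listed genes passed. DESeq2's Wald test gave 2 segments past the adjusted threshold (Igkv12-46 and Igkv4-68), where 36 of the 1175 listed genes passed. The 9 calls depended on single libraries: 0 of 37 passed the study's thresholds without sedentary replicate 1 or without sedentary replicate 2, leaving out exercise replicate 1 gave 17 (15 were higher, 2 were lower, Igkv3-10 and Igkv3-12), and leaving out exercise replicate 2 gave 29. Calls over all listed genes moved as well, to 4% and 3.75% without sedentary replicates 1 and 2, 55.3% without exercise replicate 1 and 30.7% without exercise replicate 2.

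Counting libraries instead, the lower exercise share exceeded the higher sedentary share in 27 of 37 segments, where 36% of all listed genes did so. The 27 were 13 of 13 heavy and 14 of 24 kappa segments. Exercise replicate 1 alone lay above both sedentary libraries in 36 of 37, where 47.7% of all listed genes did, and exercise replicate 2 in 28 of 37, where 59.1% did. Low counts bear on this comparison. The table also held 148 other genes whose summed sedentary counts fell in the range of the segments (1 to 69 counts), leaving out the most abundant pair. All 148 of them had a higher mean share in exercise, and 118 (79.7%) had both exercise shares above both sedentary ones. Exercise replicate 2 lay above both sedentary libraries in 148 of these 148 genes, a larger part than among the segments, and exercise replicate 1 in 118. A higher share in exercise was therefore common to listed genes of low count in sedentary bone. Since every listed gene had a higher mean count in exercise, this may follow from how the genes were chosen, which was not tested. These genes are thus no independent reference for the segments. The segments differed from those genes in which exercise library was high. Leaving out the most abundant pair, the share was higher in exercise replicate 1 than in replicate 2 for 23 of 35 segments, against 10 of the 148 other genes. With the pair it was 25 of 37, made up of 7 of 13 heavy and 18 of 24 kappa segments. This is a description with no test.

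**Figure D2:**
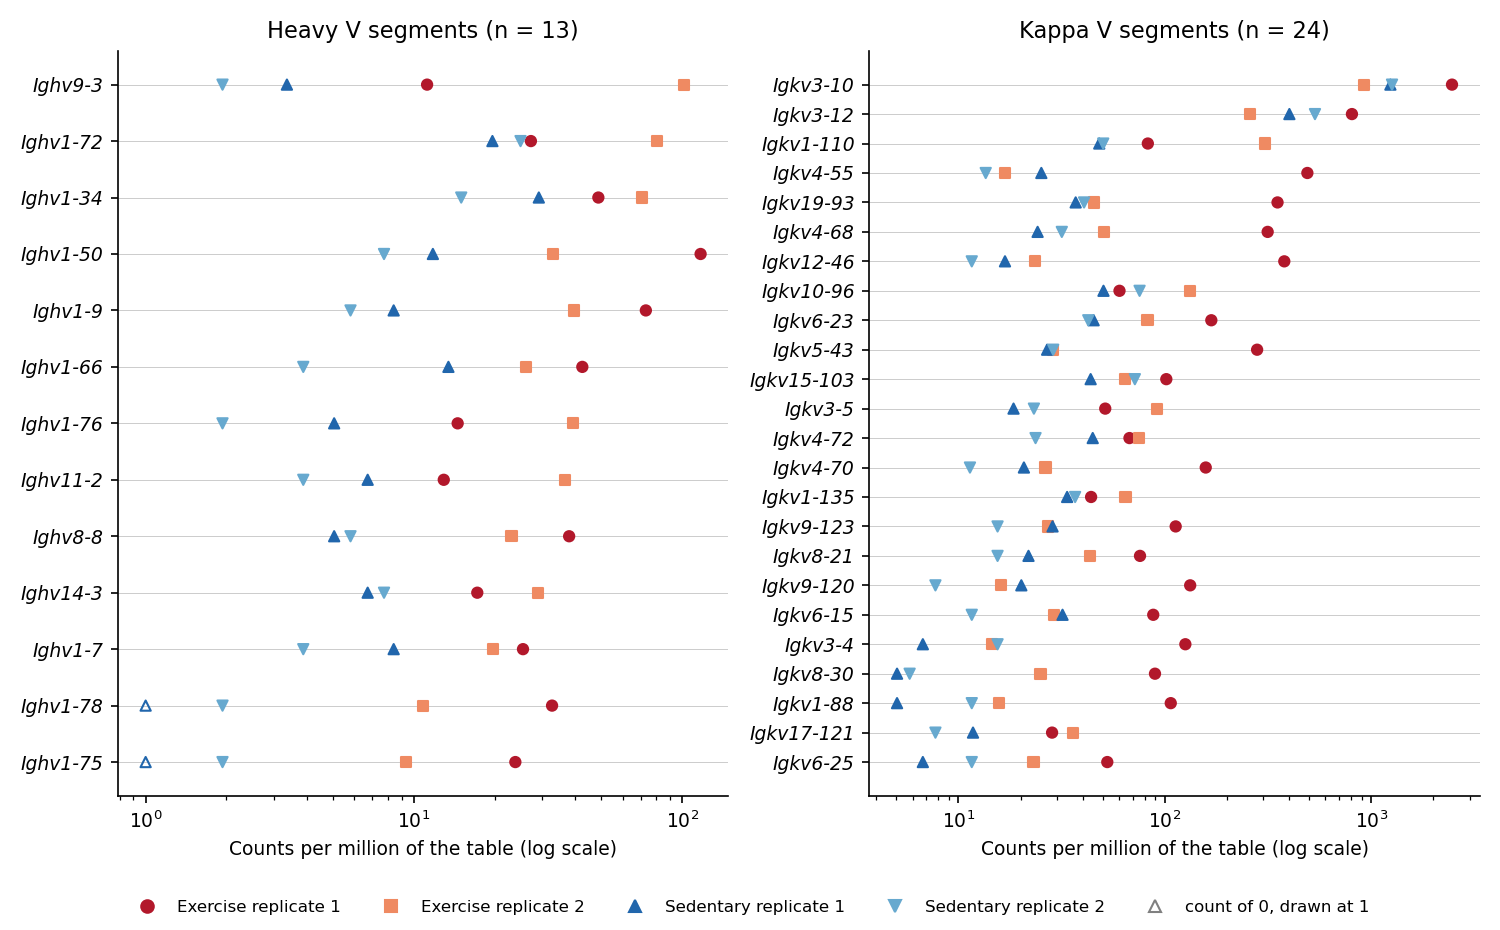
Share of each of the 37 V segments in each library, in CPM of the table on a log axis, heavy and kappa segments in separate panels. Each point is 1 library, and open triangles are counts of 0 drawn at 1 CPM. The 13 heavy segments have both exercise points above both sedentary points, and the most abundant kappa segments, Igkv3-10 and Igkv3-12, have exercise replicate 2 below both sedentary points.

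Among the heavy segments, Ighv9-3 had the highest mean count. It had 13 and 272 counts in exercise replicates 1 and 2, against 2 and 1 counts in the sedentary libraries. Almost all of its counts came from exercise replicate 2, while replicate 1 also lay above both sedentary libraries. With only 3 sedentary counts, the pooled exercise share was 27.5 times the pooled sedentary share (counting interval 9.31 to 134). Its log2 ratio in edgeR was 4.36 ± 1.44 (SE derived from the F statistic of the test, n = 2 per group, adjusted p = 0.363), and 1.99 without exercise replicate 2.

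Ighv1-9 had 85 and 106 counts in the exercise libraries, shares of 73.2 and 39.5 CPM, against 5 and 3 counts in the sedentary libraries, shares of 8.41 and 5.80. Its log2 ratio was 2.96 ± 0.84 (edgeR adjusted p = 0.3488), the lowest adjusted p of the 37 segments. Ighv1-50 had 136 and 88.5 counts (117 and 33.0 CPM) in the exercise libraries, against 7 and 4 counts (11.8 and 7.74 CPM) in the sedentary libraries, with a log2 ratio of 2.91 ± 0.92 (edgeR adjusted p = 0.3599). Both segments were high in both exercise libraries. Leaving out exercise replicate 1 gave log2 ratios of 2.44 for Ighv1-9 and 1.72 for Ighv1-50.

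Ighv1-72 and Ighv1-34, of the same family, were the heavy segments with the most sedentary counts and had the lowest log2 ratios of the 13. Ighv1-72 had shares of 27.3 and 80.4 CPM in exercise, against 19.6 and 25.0 in sedentary libraries (log2 ratio 1.26 ± 0.80, edgeR adjusted p = 0.4899). Ighv1-34 had 48.7 and 70.6 CPM in exercise, against 29.2 and 15.0 in sedentary libraries (log2 ratio 1.43 ± 0.69, edgeR adjusted p = 0.4563). In both the groups did not overlap, where 36% of all listed genes did not overlap in that direction, and neither passed. For Ighv1-72 the counting intervals of exercise replicate 1 (18.9 to 38.9) and sedentary replicate 2 (13.4 to 43.0) overlapped. Ighv1-66 had 49.3 and 70 counts in exercise, against 8 and 2 counts in sedentary libraries, a log2 ratio of 1.94 ± 1.03 that did not pass either.

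A further 3 heavy segments were higher in exercise replicate 2 than in replicate 1. Ighv1-76 had 16.9 and 105 counts in exercise, against 3 and 1 in sedentary libraries (log2 ratio 2.90 ± 1.24). Ighv11-2, whose family is known for B-1 cells that bind membrane lipids, had 15 and 98 counts in exercise, against 4 and 2 in sedentary libraries (2.21 ± 1.18). Ighv14-3 had 20 and 78 counts in exercise, against 4 and 4 in sedentary libraries (1.68 ± 1.06). None of these 3 passed the study's thresholds. At the low end, Ighv1-78 had 38 and 29 counts in exercise, against 0 and 1 in sedentary libraries, or 19.4 times the sedentary share when pooled (counting interval 3.36 to 777). Ighv1-75 had 27.7 and 25 counts in exercise, against 0 and 1 in sedentary libraries, or 15.3 times when pooled (2.64 to 617). The remaining heavy segments, Ighv8-8 and Ighv1-7, had log2 ratios of 2.47 and 1.86 and did not pass.

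Among the kappa segments, Igkv3-10 and Igkv3-12 were by far the most abundant. Igkv3-10 had 2857 and 2463 counts in exercise, against 736 and 652 in sedentary libraries, shares of 2461 and 919 CPM against 1238 and 1260. Igkv3-12 had shares of 806 and 259 CPM in exercise, against 401 and 534 in sedentary libraries. Both lay above the sedentary libraries in exercise replicate 1 and below them in replicate 2, the only segments of the 37 with replicate 2 below both sedentary libraries. Their log2 ratios were 0.43 ± 0.45 and 0.18 ± 0.53, and without exercise replicate 1 they were -0.44 and -0.85. The pair held 45.9 and 40.2% of the counts of the 37 listed segments in the exercise libraries, against 70.3 and 73.4% in the sedentary libraries.

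The other 22 kappa segments summed to 3361 and 1236 CPM in exercise replicates 1 and 2, against 573 and 564 in the sedentary libraries, so that without the pair both exercise libraries lay well above the sedentary ones. Igkv4-55 had 569 and 45.1 counts in exercise, against 15 and 7.01 counts in sedentary libraries. Its shares were 490 and 16.8 CPM in exercise, against 25.2 and 13.6 in sedentary libraries. Exercise replicate 2 thus sat between the sedentary libraries, and replicate 1 was 29.1 times replicate 2. Its log2 ratio of 3.68 ± 1.54 did not pass in edgeR but did with DESeq2's Wald test, and it was -0.23 without exercise replicate 1.

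Igkv12-46 had 440 and 63 counts in exercise (379 and 23.5 CPM), against 10 and 6 in sedentary libraries (16.8 and 11.6 CPM). It was 16.1 times higher in share in exercise replicate 1 than in replicate 2, and its log2 ratio was 3.80 ± 1.35 (edgeR adjusted p = 0.3645), or 0.71 without exercise replicate 1. Igkv4-68 had 315 and 50.7 CPM in exercise, against 24.2 and 31.7 in sedentary libraries, with a log2 ratio of 2.74 ± 0.93 (edgeR adjusted p = 0.3645), or 0.90 without exercise replicate 1. Both passed the study's thresholds and lost the call without exercise replicate 1. Igkv4-72, of the same family as Igkv4-68, had 67.4 and 74.7 CPM in exercise, against 44.7 and 23.6 in sedentary libraries (log2 ratio 1.04 ± 0.61, not passing). Igkv19-93 followed the pattern of replicate 1, with 351 and 45.5 CPM in exercise, against 37.0 and 40.6 in sedentary libraries (2.34 ± 0.97, not passing in edgeR but passing with DESeq2's Wald test).

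Igkv8-30 was low and even in sedentary bone. It had 104 and 67 counts in exercise, against 3 and 3 counts in sedentary libraries, a log2 ratio of 3.37 ± 1.04 (edgeR adjusted p = 0.3599), or 2.19 without exercise replicate 1. Igkv6-23 had 168 and 82.3 CPM in exercise, against 45.2 and 42.6 in sedentary libraries, with a log2 ratio of 1.50 ± 0.53 (edgeR adjusted p = 0.3645), or 0.90 without exercise replicate 1. Without exercise replicate 2 the log2 ratios were 4.01 for Igkv8-30 and 1.93 for Igkv6-23. Like the other calls, neither held when a sedentary library was left out.

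Other kappa segments were high in exercise replicate 2. Igkv1-110 had 96.0 and 817 counts in exercise (82.7 and 305 CPM), against 28.6 and 26 counts in sedentary libraries (48.1 and 50.3 CPM). Its log2 ratio was 1.97 ± 0.67 (edgeR adjusted p = 0.3645), or 0.74 and no longer called without exercise replicate 2. Igkv3-5, the near copy of Igkv3-10, had 51.4 and 91.7 CPM in exercise, against 18.5 and 23.2 in sedentary libraries, with a log2 ratio of 1.78 ± 0.66 (edgeR adjusted p = 0.379). Between the exercise libraries Igkv3-5 was higher in replicate 2 and Igkv3-10 higher in replicate 1, although their V exons are 98.1% identical.

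Igkv10-96, the segment that leads the sedentary libraries once the most abundant pair is set aside, had 60.3 and 132 CPM in exercise, against 50.4 and 75.4 in sedentary libraries. Exercise replicate 1 fell between the sedentary values, and the log2 ratio was 0.62 ± 0.57, or -0.051 without exercise replicate 2. Igkv1-135 had 43.9 and 64.5 CPM in exercise, against 33.6 and 36.8 in sedentary libraries (0.63 ± 0.62). Igkv17-121 had 28.4 and 36.0 CPM in exercise, against 11.8 and 7.74 in sedentary libraries (1.71 ± 0.91). None of the 3 passed. The 10 kappa segments not described one by one had log2 ratios between 0.52 (Igkv15-103) and 2.87 (Igkv1-88), and none passed the study's thresholds.

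**Figure D3:**
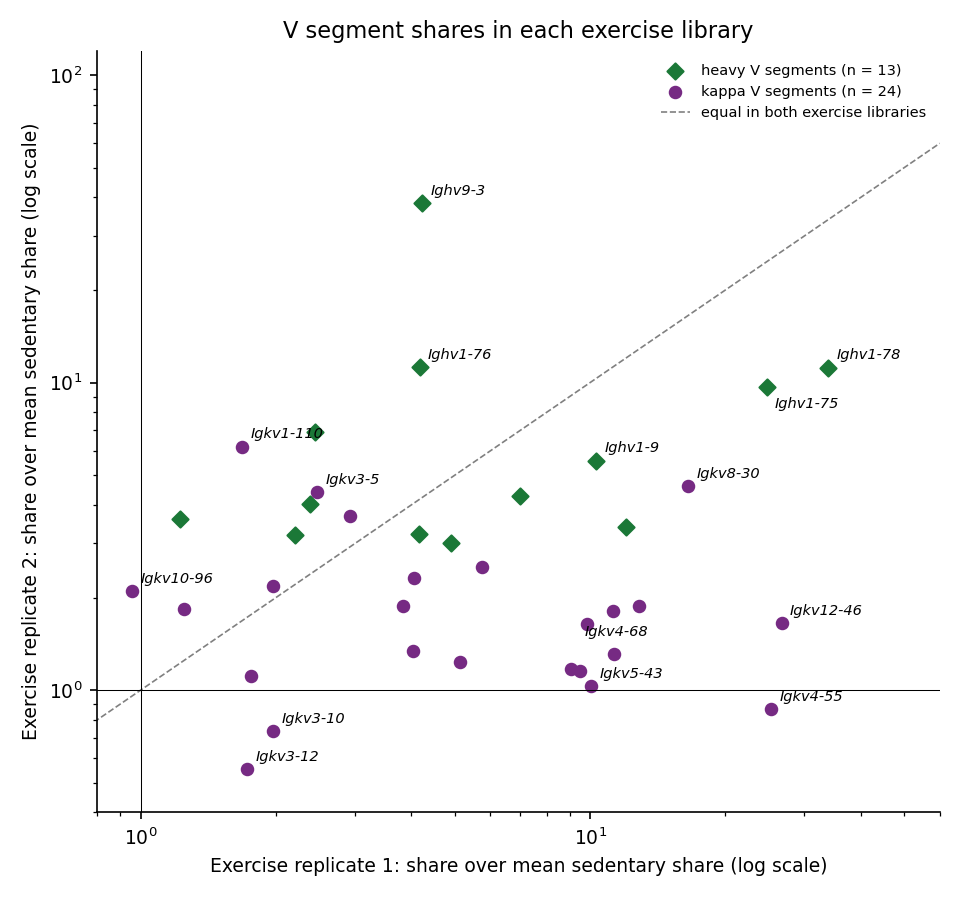
Share of each segment in exercise replicate 1 (x axis) and exercise replicate 2 (y axis), each over the mean share of the sedentary libraries, both on log axes. Diamonds are the 13 heavy and circles the 24 kappa segments, and the dashed line marks equal ratios. Igkv4-55 and Igkv12-46 lie far to the right near a y value of 1, and Ighv9-3 lies high above the line.

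The exercise libraries differed from each other over the V segments about as often as over listed genes of like count, but mostly in the other direction. A difference of over 2-fold in share between them was found for 65.7% of the 35 segments without the most abundant pair. It was found for 63.5% of the 148 other genes in the same range of sedentary counts. A difference of over 4-fold was found for 31.4% and 33.8%. With the pair, the segments gave 67.6% and 29.7%. A share more than 4-fold higher in exercise replicate 1 than in replicate 2 was found for 13 of the 1175 listed genes, and 10 of these were V segments, all kappa. The other 3 were Ighm, Gm44965 and Gm43590. In the other direction, 70 listed genes were more than 4-fold higher in replicate 2, and 1 of them was a V segment (Ighv9-3). At 2-fold the counts were 19 segments among 31 listed genes higher in replicate 1, and 6 segments (4 heavy and 2 kappa) among 161 listed genes higher in replicate 2. The SD of the log2 ratio between the exercise libraries was 1.81 over the 37 segments, 1.31 over the 148 other genes and 0.957 over all listed genes, and between the sedentary libraries it was 0.769 over the 35 segments with counts in both and 0.411 over all listed genes. Part of the spread between sedentary libraries is counting error, since 16 and 24 of the 37 segments had under 10 counts there, against 0 and 0 in the exercise libraries.

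The order of the segments was then compared between libraries. Spearman's rho over the 37 segments was 0.05 between the exercise libraries and 0.87 between the sedentary libraries. It was -0.09 and 0.80 over the 13 heavy segments, and -0.09 and 0.85 over the 24 kappa segments. The exercise libraries were thus alike in their heavy V sum but not in the order of the heavy segments. Over the 24 kappa segments, exercise replicate 2 ranked the segments much as the sedentary libraries did (rho 0.81 and 0.80), and exercise replicate 1 did not (0.23 and 0.22). This was not so for the 13 heavy segments, where rho with the sedentary libraries was 0.54 and 0.53 for exercise replicate 1 and 0.43 and 0.37 for replicate 2, nor over all 37, where it was 0.57 and 0.61 for replicate 1 and 0.64 and 0.61 for replicate 2. These values describe the libraries, carry no test, and share library depth and the division of reads among near copies. They cover only listed segments, and every listed gene had a higher mean count in exercise. A segment high in a single exercise library can meet that, which may lower the likeness of the exercise libraries. How the listing bears on these orders, and on the leading segments below, was not tested. Setting aside Igkv3-10 and Igkv3-12, the leading segments of exercise replicate 1 were Igkv4-55, Igkv12-46, Igkv19-93, Igkv4-68 and Igkv5-43 (47.2% of the other 35 segments' counts), and those of replicate 2 were Igkv1-110, Igkv10-96, Ighv9-3, Igkv3-5 and Igkv6-23 (40.6%). The exercise libraries had none of their 5 leading segments in common, while the sedentary libraries shared Igkv10-96, Igkv1-110, Igkv6-23 and Igkv15-103.

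The evenness of the mixture was measured as the effective number of segments, the number of equally abundant segments that would give the same concentration. It was 6.67 and 7.86 in the exercise libraries, against 3.17 and 3.15 in the sedentary libraries. Without Igkv3-10 and Igkv3-12 it was 16.8 and 16.8 in the exercise libraries, against 22.5 and 17.7 in the sedentary libraries. The direction of the difference thus turned with the most abundant pair. The effective number, and the heavy chain share that follows, cover listed segments only, 11.5% of the annotated heavy and 24% of the kappa V genes. V segments outside the table are missing, so neither measure describes all V segment RNA of the bone. The share of V segment counts that came from the heavy chain was 6.82% (6.28 to 7.38) and 17.7% (16.9 to 18.6) in exercise replicates 1 and 2, against 5.05% (3.96 to 6.34) and 3.54% (2.61 to 4.74) in the sedentary libraries, and the intervals of exercise replicate 1 and sedentary replicate 1 overlapped.

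By family, Ighv1 was the broadest heavy family, with 9 listed of 53 annotated segments, and it summed to 405 and 329 CPM in exercise, against 95.9 and 67.1 in sedentary libraries. The Igkv4 family, 4 listed of 26, summed to 1030 and 169 CPM in exercise, against 115 and 80.3 in sedentary libraries. Igkv1, 3 of 10, summed to 233 and 385 in exercise, against 86.8 and 98.7 in sedentary libraries. These 3 families lay above both sedentary libraries in both exercise libraries, as did Igkv6 with 308 and 135 CPM in exercise, against 83.9 and 65.8 in sedentary libraries, and Igkv8 with 165 and 68.3 in exercise, against 26.9 and 21.3. Igkv9 did not, with 246 and 43.3 in exercise, against 48.8 and 23.2. Igkv3 went with its most abundant members, at 3444 and 1284 in exercise, against 1664 and 1833 in sedentary libraries.

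**Figure D4:**
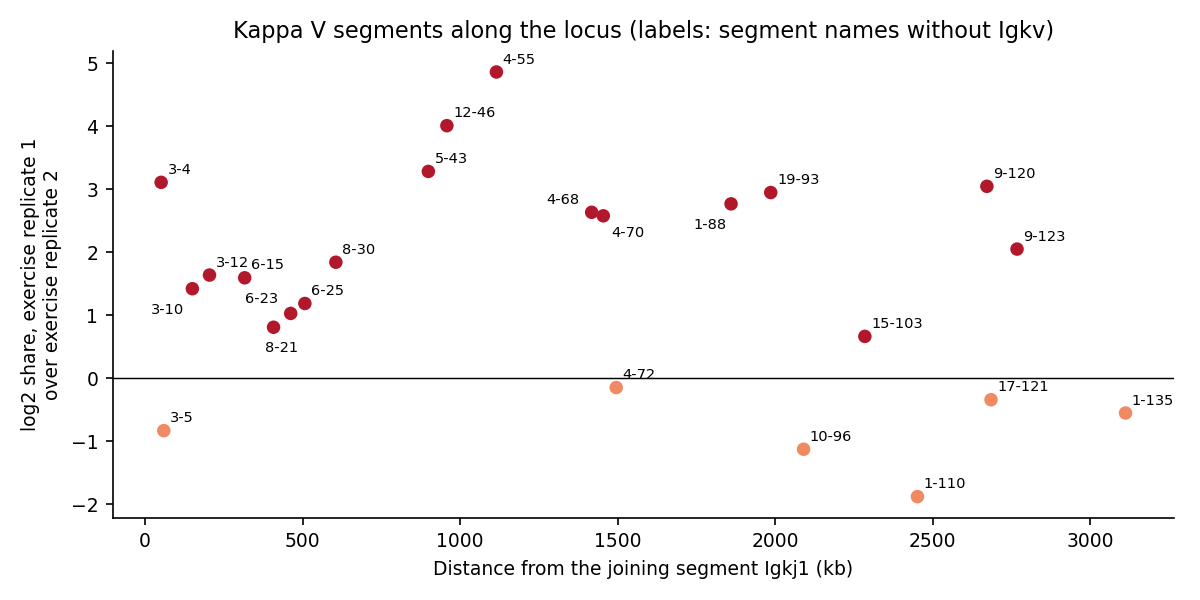
The log2 ratio of share in exercise replicate 1 over exercise replicate 2 for the 24 kappa segments, against their distance in kb from the joining segment Igkj1. Points above 0 (dark) are higher in replicate 1 and points below 0 (light) in replicate 2, and the points furthest above 0 are Igkv4-55 and Igkv12-46.

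Along the kappa locus, 5 neighbouring listed segments 899 to 1455 kb from the joining segment Igkj1 (Igkv5-43, Igkv12-46, Igkv4-55, Igkv4-68 and Igkv4-70) were each more than 4-fold higher in exercise replicate 1 than in replicate 2. They were singled out after their values were seen. Together they had 1622 and 146 CPM in exercise, against 114 and 97.0 in sedentary libraries. The next listed segment outward, Igkv4-72 at 1496 kb, had a log2 ratio between the exercise libraries of -0.15. On the other side, Igkv8-30 at 606 kb was 3.58-fold higher in exercise replicate 1. The other 5 of the 10 kappa segments past 4-fold (Igkv3-4, Igkv1-88, Igkv19-93, Igkv9-120 and Igkv9-123) lay elsewhere, 50.8 to 2768 kb from Igkj1.

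Of 13 immunoglobulin constant region and joining chain genes, Ighm alone was in the table. Ighm, the constant region of IgM, had shares of 41148 and 9160 CPM in exercise replicates 1 and 2, against 20194 and 20392 in the sedentary libraries. Like the kappa sum it was highest in exercise replicate 1, but in replicate 2 it lay below both sedentary libraries. Its log2 ratio was 0.31 ± 0.64 (edgeR adjusted p = 0.8021). Set against Ighm, the V segments had 173 and 320 counts per 1000 Ighm counts in the exercise libraries, against 115 and 120 in the sedentary libraries. The heavy segments had 11.8 and 56.6 per 1000 in the exercise libraries, against 5.83 and 4.24 in the sedentary libraries. On this scale, too, both exercise libraries lay above both sedentary ones, with replicate 2 the higher.

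Markers of the cells that carry these segments were few in the table. Of 14 B lymphocyte identity genes 3 were listed, and together they had 1330 and 1572 CPM in exercise, against 1459 and 1588 in sedentary libraries. Pax5, the factor that holds B cell identity, had a log2 ratio of -0.16, Cd22, an inhibitory receptor, -0.08, and Fcer2a, the low-affinity IgE receptor, 0.31. Of 14 genes of B cell development and V(D)J recombination 4 were listed: the recombinase gene Rag1 (0.19), the interleukin 7 receptor gene Il7r (0.13), and the end-joining genes Dclre1c (0.22) and Prkdc (0.20). They summed to 935 and 1916 CPM in exercise, against 1341 and 1184 in sedentary libraries, with exercise replicate 2 the highest library and replicate 1 the lowest. The octamer factor Pou2f1, 1 of 3 listed, had a log2 ratio of -0.04. Of 13 plasma cell, 12 T lymphocyte and 9 skeletal muscle genes 0 were in the table, so their levels were not analysed here.

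Among the genes of other cell types, the granulocyte genes Csf3r and Padi4 (2 of 11 listed) summed to 6978 and 5669 CPM in exercise, against 5436 and 5334 in sedentary libraries, with log2 ratios of 0.25 and 0.19. Among erythroid genes, Epb42 and Sptb were listed (2 of 11), and they summed to 7141 and 7636 in exercise, against 8763 and 8974 in sedentary libraries, with log2 ratios of -0.24 and -0.28. Sost, the osteocyte product sclerostin and the only listed gene of 14 osteoblast and osteocyte genes, had 786 and 696 CPM in exercise, against 723 and 667 in sedentary libraries (log2 ratio 0.09). By the study's thresholds, none of the 14 genes named from these lists was called. Their part in the V segment differences was not tested.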

How the data were processed

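Bone RNA of 4 libraries, 2 exercise and 2 sedentary, was sequenced as 150-base paired ends after a modified Smart-seq2 preparation with molecular barcodes. The authors deposited unscaled estimated counts for each listed gene in 1 table, made with STAR, HTSeq and the mm10 genome and with barcode duplicates removed, per the labels and the study's methods. Versions, gene annotation, use of strand and the step that made 579 of 1175 genes fractional are not given in these sources. Table totals, 516963 to 2680636 counts, stand in for depth, since only listed genes are summed. The design assumed a table of all genes.

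Counts were rounded and fitted with edgeR 4.0.16 (glmQLFit and glmQLFTest, R 4.3.3) over all 1175 genes, with column totals as library sizes, no filter and no covariates, and p-values were adjusted by Benjamini-Hochberg. Each SE given is the size of the log2 ratio over the square root of the test's F statistic, not a separate estimate. Common biological variation was 0.294. The script was tested on simulated data. An exact permutation test of 2 against 2 cannot give p under 0.333, so none was run. Alternatives were DESeq2 1.42.0 and TMM factors, DESeq2's Wald test, limma-voom (limma 3.58.1), count filters, whole-count genes only, totals without immunoglobulin genes, a replicate block and leaving out each library. Positions and V exons came from GENCODE M21. Named were the 6 heavy and 8 kappa segments of highest mean count, all past the study's thresholds, all with under 3 summed sedentary counts, and all higher in share in exercise replicate 2 than 1. The members, gene lists and rules were chosen with earlier results of these data known. A withheld sequence is not reported here.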

Additional observations from a re-analysis of the deposited data

How the results depend on the processing

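Counts were low on the sedentary side, where 16 and 24 of the 37 segments had under 10 counts, and with 2 libraries per group each library carried much of a call. All 37 segments stayed higher in exercise with DESeq2 size factors, TMM factors, totals without immunoglobulin genes and the Wald test. Among whole-count genes only 14 segments could be fitted: 14 were higher, 10 had both exercise shares above both sedentary shares, and 4 passed the study's thresholds (3 of them among the 9), where 7.55% of the genes fitted passed. For the higher and the non-overlapping segments no share over the whole-count genes was worked out. Over all listed genes 64.1% were higher and 36% did not overlap in that direction. Of the 148 other genes of like sedentary count, 79.7% did not overlap. The 9 calls (11.4% of all listed genes called) became 17 with DESeq2's Wald test (13.3%), 0 with limma-voom (5.79%) and 0 to 29 when single libraries were left out (3.75 to 55.3%), and the 0 segments past the adjusted threshold became 2 with the Wald test and 0 to 25. With filterByExpr, 13 of 34 segments and 146 of 1123 genes (13.0%) passed. Over all listed genes, 134 past the study's thresholds became 68 with limma-voom, 45 among whole-count genes and 44 to 650 with a library left out. The 4 past the adjusted threshold became 36 with the Wald test, 0 with limma-voom, 0 among whole-count genes, 12 with the replicate block and 0 to 651. The median log2 ratio ranged between 2.01 and 3.04 for heavy and 0.79 and 2.16 for kappa segments with a library left out, a setting in which the lone library is assumed to vary like the other group. Direction turned for Igkv3-12 with limma-voom (-0.0875), the replicate block (-0.0199), without exercise replicate 1 and without sedentary replicate 1 (leave-one-out range -0.85 to 0.79, with -0.0093 for the sedentary one), for Igkv3-10 (-0.44 to 0.98) and Igkv4-55 (-0.23 to 4.62) without exercise replicate 1, and for Igkv10-96 without exercise replicate 2 (-0.051 to 1.08). The cause was not tested. With the replicate number as a block, 10 segments passed the study's thresholds (8 of them among the 9), where 10.2% of all listed genes did, and 0 the adjusted one. The numbers are not stated to pair libraries, and the replicate differences of the groups had a correlation of -0.07 over 1005 genes. The Wald test, limma-voom and the block give no count of shares that do not overlap.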
